A study of Mus musculus with 12 samples.

Results

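Pdcd1, Havcr2, Lag3, Tigit, Ctla4, Cd160, Btla and Entpd1 were examined as inhibitory checkpoint receptors of tumor-infiltrating immune cells. These 8 genes, of 31053 in the count matrix, were chosen by name, with earlier results of these data known, and all 8 were measured. Checkpoint receptors are surface proteins that restrain activated lymphocytes: PD-1 (Pdcd1) and BTLA recruit phosphatases to their cytoplasmic tails, CTLA-4 competes with CD28 for CD80 and CD86, LAG-3 binds MHC class II, and TIGIT competes with CD226 for CD155 (Pvr). TIM-3 (Havcr2) and CD39 (Entpd1), an enzyme that degrades extracellular ATP, are also known on myeloid cells, and CD160 on NK cells and cytotoxic T cells. Several of these receptors are found together on CD8+ T cells that have been stimulated for long by tumor antigen, a state called exhaustion, whereas TCF-1 (Tcf7) marks the less differentiated cells from which such cells arise.

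The data were droplet-based scRNA-Seq of CD45+ cells from subcutaneous MC38 tumors, a mouse colon carcinoma line, grown in C57BL/6 mice and taken on day 17. The 12 samples fell into 4 groups of 3, which received vehicle or the EZH2 inhibitor PF-06821497 (EZH2i) at 100 mg/kg, subcutaneously each day, for 7 or 16 days. The 12 libraries were deposited as 1 matrix whose barcodes carry a library number, and no label used here ties a number to a mouse. Libraries were not assigned to groups from their order or their numbers of cells, and EZH2i was therefore not compared with vehicle: all cells were treated as 1 pooled sample, libraries are given singly or by range and median, no p-value is given, and every interval is a 95% interval for counting error only.

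Libraries held 4256 to 38110 barcodes and 21649947 to 158760328 UMIs (unique molecular identifiers, each counting 1 captured transcript), and 128912 cells passed the study's limits on genes and mitochondrial UMIs. The same barcode sequence occurred in more than 1 library for 2261 of 138353 sequences (1.63%). A Ptprc (CD45) UMI was found in 77.7% of the cells kept. The libraries were of 2 kinds, as UMIs of 4 Y-linked genes were present in libraries 1 to 6 (128 to 209 counts per 1000000 UMIs, CPM) and at 0 in libraries 7 to 12 (below 0.146 CPM, taking 3 counts as the limit of detection). The study's methods describe female mice, and the Y-linked UMIs of 6 libraries go against this. Ratios within the 2 sets of libraries are given where they moved a called result by over 1.5 times; whatever else differs between the sets cannot be told apart from this split. Library 4 held only 7 CD8 T cells and gives no CD8 value.

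Cells were assigned to classes by UMIs of lineage genes, none of which is among the 8 receptors. The CD8 T class (at least 2 UMIs of Cd3 genes, at least 1 of Cd8a or Cd8b1, none of Cd4 or Foxp3, of B cell genes, or of the myeloid genes Adgre1, Csf1r, Fcgr1 and Csf3r) held 3156 cells with a median of 3087.5 UMIs. The conventional CD4 T class held 621 cells (median 3352 UMIs), the Foxp3-positive T class 29 (4617), NK cells 186 (3116.5), B cells 352 (1290.5), dendritic cells 2240 (3795.5) and macrophages 67675 (5201). Neutrophils, 1949 cells with a median of 1216 UMIs, were added as a further background class. Together the 8 classes held 59.0% of the cells kept. They were not fully exclusive, as the dendritic class shared 111 cells with the macrophage class and 3 with the neutrophil class. Defining genes followed the names: Trac was at 559 CPM in CD8 T cells and 2.90 in B cells, Ncr1 at 392 in NK cells and 0.80 in CD8 T cells, Cd79a at 1542 in B cells, and C1qa at 5666 in macrophages. The Foxp3-positive class was thin, and a Cd4 UMI was found in 44.8% of its cells. Macrophage transcripts that no T cell gate used were present in all classes: Apoe and the C1q genes together stood in CD8 T cells at 4.14% of their macrophage level (1.28 to 13.9% over 11 libraries).

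The 8 genes are protein-coding and lie, in GENCODE M21 (GRCm38), at chr1:94038305-94052553 (Pdcd1, minus strand), chr11:46454935-46481255 (Havcr2, plus), chr6:124904361-124911705 (Lag3, minus), chr16:43648867-43664146 (Tigit, minus), chr1:60887000-60915832 (Ctla4, plus), chr3:96798763-96829351 (Cd160, minus), chr16:45224315-45257670 (Btla, plus) and chr19:40612366-40741602 (Entpd1, plus). None overlapped another gene of the matrix on the same strand, and Cd160 overlapped Pdzk1 on the opposite strand. UMIs were counted at the 3′ end of transcripts, so the levels below are compared between classes for a gene and not between genes.

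The promoters shown are those of Havcr2, which was lowest in Tcf7-positive relative to Tcf7-negative CD8 T cells, and of Cd160 and Btla, which were highest there. They are the 250 bases before the RefSeq start (GRCm38.p6), printed 5′ to 3′ on the strand of the gene. Capitals mark matches on either strand to CTTTGA (TCF and LEF factors), GGAAAA (NFAT), TGANTCA (AP-1) or TGTGGT (RUNX); none of the matches in the 4 sequences overlapped another.
Havcr2, chr11:46454681-46454930, plus strand: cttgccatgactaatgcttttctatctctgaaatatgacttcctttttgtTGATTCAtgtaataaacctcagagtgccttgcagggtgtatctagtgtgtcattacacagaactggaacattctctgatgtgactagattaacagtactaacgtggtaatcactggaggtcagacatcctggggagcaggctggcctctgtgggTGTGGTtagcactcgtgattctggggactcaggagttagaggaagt
Btla, chr16:45224087-45224336, plus strand: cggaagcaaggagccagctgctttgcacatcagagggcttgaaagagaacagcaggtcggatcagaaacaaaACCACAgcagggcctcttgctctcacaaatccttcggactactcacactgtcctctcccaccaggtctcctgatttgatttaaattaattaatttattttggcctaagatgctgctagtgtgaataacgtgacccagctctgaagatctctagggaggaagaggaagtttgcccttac
Cd160, chr3:96829352-96829601, minus strand: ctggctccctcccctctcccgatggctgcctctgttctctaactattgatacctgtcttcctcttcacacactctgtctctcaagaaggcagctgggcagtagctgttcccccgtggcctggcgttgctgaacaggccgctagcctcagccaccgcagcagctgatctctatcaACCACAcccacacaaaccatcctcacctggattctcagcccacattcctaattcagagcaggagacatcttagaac
Cd160, chr3:96814522-96814771, minus strand: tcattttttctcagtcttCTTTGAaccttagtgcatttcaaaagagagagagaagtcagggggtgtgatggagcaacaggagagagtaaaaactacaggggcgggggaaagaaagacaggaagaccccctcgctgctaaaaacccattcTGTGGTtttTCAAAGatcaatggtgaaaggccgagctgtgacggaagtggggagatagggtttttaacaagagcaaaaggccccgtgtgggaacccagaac
The Havcr2 sequence held 1 AP-1 and 1 RUNX match, the Btla sequence 1 RUNX match, the upstream Cd160 start 1 RUNX match, and the downstream Cd160 start 2 TCF and LEF matches and 1 RUNX match. In the RefSeq table, which held promoters for 7 of the 8 genes, CTTTGA was found in 13.8% of 32851 windows of this length, GGAAAA in 20.4%, TGANTCA in 6.75% and TGTGGT in 14.0%. A match describes these letters and was not tested as a binding site.

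Pdcd1 transcripts were concentrated in T cells. The level was 298 CPM in CD8 T cells (289 to 308), 334 in conventional CD4 T cells and 289 in Foxp3-positive cells, against 19.2 in NK cells, 7.50 in dendritic cells, 2.67 in neutrophils, 1.45 in B cells and 0.87 in macrophages. A Pdcd1 UMI was found in 48.1% of CD8 T cells and in 0.28% of B cells, whose median depth was lower. The pooled level was lower in CD8 than in CD4 T cells (ratio 0.89, 0.83 to 0.96), but the order was not uniform, as CD4 T cells were higher in 5 of 8 libraries. CD8 and Foxp3-positive cells had intervals that overlapped. Among dendritic cells, the mature cells (at least 2 UMIs of Ccr7 and Fscn1) had a Pdcd1 UMI in 3.73% of 1100 cells.

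Ctla4 was highest in Foxp3-positive and conventional CD4 T cells. Its level was 172 CPM in CD8 T cells, 523 in conventional CD4 T cells and 1547 in Foxp3-positive cells, followed by 47.99 in NK cells, 11.6 in dendritic cells, 10.1 in B cells, 5.34 in neutrophils and 1.08 in macrophages. Of the 262 UMIs in Foxp3-positive cells, 53 came from libraries other than library 8. In the libraries with Y-linked UMIs the Foxp3-positive level was 447 CPM, below the conventional CD4 level of 544, and in those without it was 2268 against 515. Without library 8 the pooled ratio of these 2 classes was 1.09. Conventional CD4 T cells were above CD8 T cells in 8 of 8 libraries. Type 1 dendritic cells (a UMI of Xcr1 or Clec9a) had a Ctla4 UMI in 8.41% of 892 cells (6.67 to 10.4%) and a level of 21.1 CPM, which ranged from 5.24 to 38.6 over 9 libraries. Trac and Trbc2, T cell receptor genes, stood in these cells at 0.46% of their CD8 T level, and Ctla4 at that percentage of its own CD8 T level would be 0.79 CPM.

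Lag3 was similar in CD8 T (100 CPM) and conventional CD4 T cells (102), lower in NK (21.9), dendritic (17.9) and macrophage (16.5) classes, and lowest in neutrophils (3.47) and B cells (2.90). The NK, dendritic and macrophage intervals overlapped. The macrophage level of Lag3 varied between libraries, from 3.24 to 44.0 CPM (median 8.58), and was 20.9 CPM in the libraries with Y-linked UMIs and 8.87 in those without. A Lag3 UMI was found in 23.5% of CD8 T cells and 0.57% of B cells. Plasmacytoid dendritic cells (at least 2 Siglech UMIs) were apart from the other dendritic cells, with a Lag3 UMI in 41.3% of 126 cells (32.6 to 50.4%) against 9.02% of dendritic cells of no named subset, 5.83% of type 1 cells and 1.91% of mature cells, and a pooled level of 270 CPM. The only 2 libraries with at least 20 plasmacytoid cells were lower, with Lag3 at 98.2 CPM in library 5 (4 of 20 cells) and 216 CPM in library 6 (15 of 47 cells). Tigit was sparse: 88 UMIs in CD8 T cells (7.03 CPM, 2.69% of cells), 25 in conventional CD4 T cells (9.40 CPM), 5 in NK cells and 1 in Foxp3-positive cells, with 0 UMIs in B cells (below 4.35 CPM at 3 counts) and neutrophils (below 0.80). The order of the T and NK classes was not resolved at this depth.

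Cd160 was a gene of CD8 T and NK cells, at 42.2 and 49.4 CPM, with intervals that overlapped. A Cd160 UMI was found in 10.6% of CD8 T cells, 14.0% of NK cells, 0.97% of conventional CD4 T cells and 0.57% of B cells. No UMI was found in 2240 dendritic cells, so that CD8 T cells were at least 165-fold higher, taking 3 counts as the limit of that class.

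Havcr2, Btla and Entpd1 reached their highest levels outside T cells. Havcr2 was at 138 CPM in dendritic cells and 115 in macrophages, above conventional CD4 T (87.6) and CD8 T cells (72.2); B cells were at 27.5 and NK cells at 8.23. Within dendritic cells, Havcr2 was at 198 CPM in type 1 cells (155 to 272 over 9 libraries), 216 in the 122 dendritic cells of no named subset, 67.4 in mature cells and 25.3 in plasmacytoid cells. The intervals of the first 2 overlapped. An Epcam UMI was found in 50% of the dendritic cells of no named subset. The CD8 level was 0.82 of the conventional CD4 level (0.71 to 0.96), was lower in 6 of 8 libraries, and was at 0.86 in the libraries with Y-linked UMIs and 0.61 in those without. The macrophage transcripts in CD8 T cells correspond to 4.76 CPM of Havcr2 and 4.59 of Entpd1, below the 72.2 and 49.1 CPM measured. In B cells the same calculation gives 8.24 CPM of Havcr2. It covers macrophage transcripts only, and neither the T cell gates nor the B cell gate excluded dendritic genes. Flt3, a dendritic gene, was at 5.11 CPM in CD8 T, 16.2 in conventional CD4 T and 30.4 in B cells, against 130 in dendritic cells. Xcr1 was at 43.5 CPM in B cells, against 218 in dendritic cells. The part of dendritic transcripts in the CD8, CD4 and B cell levels of Havcr2 and Btla was not tested. Btla was at 82.6 CPM in B cells and 79.3 in dendritic cells (60.4 to 113 over 12 libraries), 120 in type 1 dendritic cells, 20.3 in conventional CD4 T cells and 10.4 in CD8 T cells. The B and dendritic intervals overlapped, and B cells were higher in 2 of 4 libraries. Library 10 held 173 of the 352 B cells. No Btla UMI was found in NK cells (below 4.11 CPM at 3 counts), which were at least 2.53-fold below CD8 T cells by that limit. Entpd1 was highest in neutrophils at 411 CPM (86.1 to 803 over 12 libraries) and was at 111 in macrophages, 65.0 in Foxp3-positive cells, 49.1 in CD8 T cells, 47.9 in dendritic cells and 42.5 in conventional CD4 T cells. The order from Foxp3-positive to conventional CD4 T cells was within the counting intervals.

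**Figure D1:**
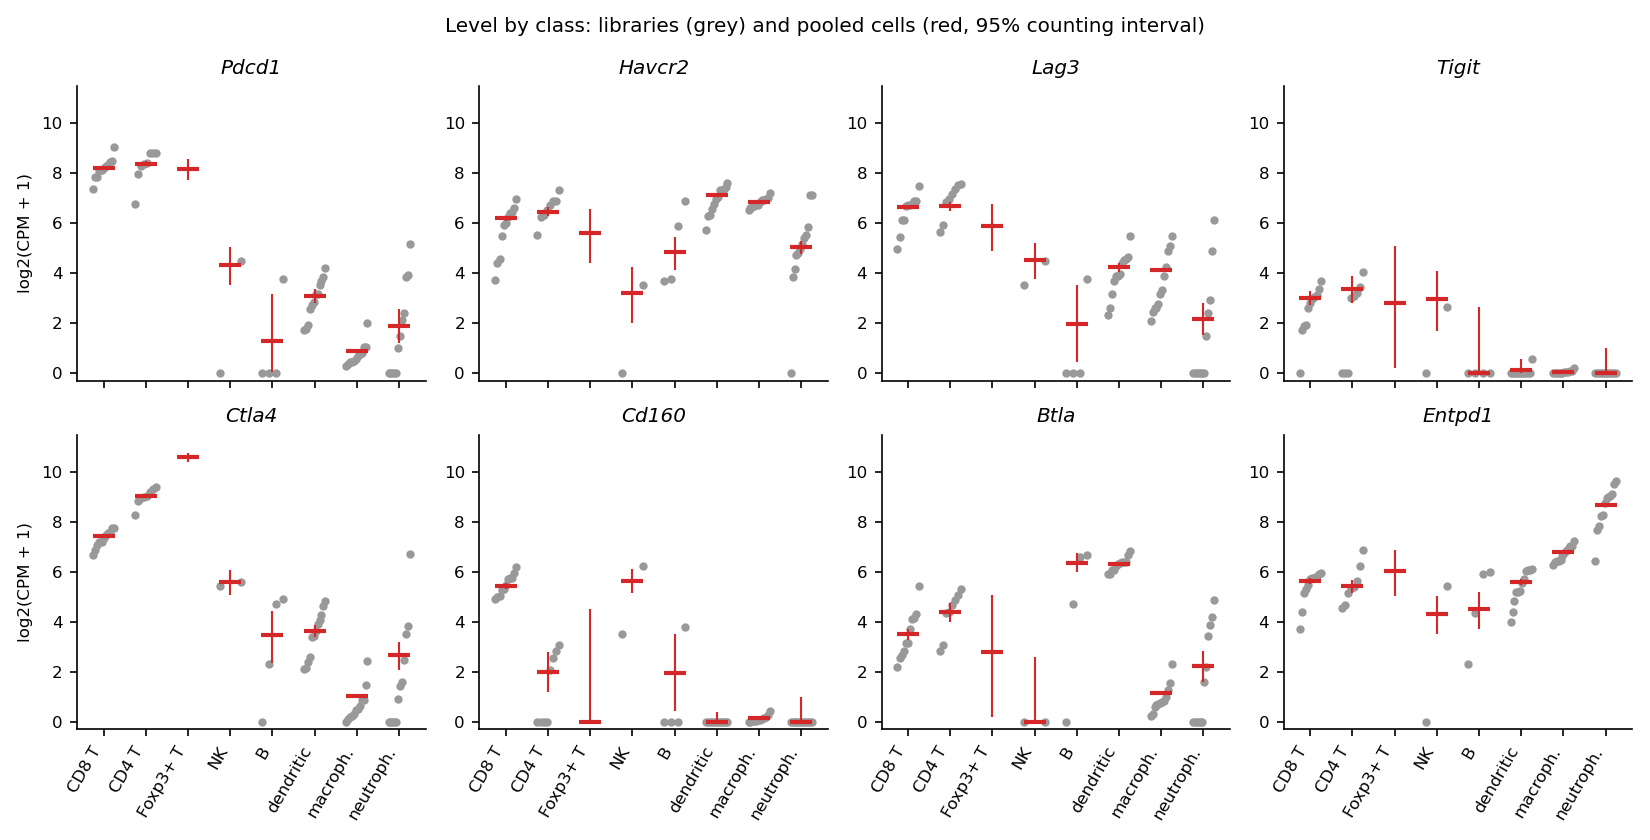
Each panel plots 1 receptor, with log2(CPM + 1) on the vertical axis and the 8 classes on the horizontal axis; grey points are libraries with at least 20 cells of the class, in order of value, and red bars are the pooled cells with their 95% counting interval. Pdcd1 and Ctla4 stand highest in T cell classes, Tigit in T and NK cells, Cd160 in CD8 T and NK cells, Btla in B and dendritic cells and Entpd1 in neutrophils.

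Levels were called different between 2 classes at a ratio of 2 or more, among genes with at least 50 UMIs. Between CD8 and conventional CD4 T cells, 1 member was called higher in CD8 T cells, where 3.2% of 9803 genes were, and 1 lower, where 3.04% were. Cd160 was 14.0-fold higher (7.07 to 32.7) and higher in 8 of 8 libraries. Its ratio was 29.6 in the libraries with Y-linked UMIs and 12.5 in those without. The former rests on a CD4 level of 1.32 CPM from 1 UMI, below the limit of 3 counts, so its size is not resolved. Ctla4 was at 0.33 of the CD4 level (0.31 to 0.35). Btla, at 0.51, lay just inside the limit, was lower in 7 of 8 libraries, and ran from 0.447 to 0.499 without library 5, 6, 9, 10, 11 or 12. It was past the limit in both sets of libraries, at 0.43 in those with Y-linked UMIs and 0.49 in those without. The remaining 5 were within 0.75 to 1.16 of the CD4 level.

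Foxp3-positive cells had 1 member called higher than conventional CD4 T cells, Ctla4 at a ratio of 2.96 (2.58 to 3.38), where 3.7% of 5887 genes were, and 1 called lower, Btla, from 1 UMI and with an interval of 0.01 to 1.69, where 10.7% were. The Btla ratio was 0 in the libraries with Y-linked UMIs and 0.56 in those without. Tigit and Cd160 had too few UMIs here. The Ctla4 difference was not shared by the 2 kinds of libraries: the ratio was 0.82 in the libraries with Y-linked UMIs and 4.41 in those without, and it was 1.09 without library 8, which gave 11 of the 29 cells. The CD4 class itself was mixed, since its 193 cells with an Il2ra UMI were at 796 CPM of Ctla4 and 161 of Lag3, against 385 and 71.3 in the 428 cells without one, at similar depth. This split was made after the values had been seen.

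Tcf7-positive cells were compared with Tcf7-negative cells among non-cycling CD8 T cells, 288 against 2310 cells, to relate the receptors to the less differentiated state. Cells without a Tcf7 UMI include cells in which the transcript was missed. Havcr2 was at 20.9 CPM in Tcf7-positive and 78.8 in Tcf7-negative cells, a ratio of 0.27 (0.17 to 0.40), and Lag3 at 52.0 and 110, a ratio of 0.47 (0.36 to 0.61). These 2 members were called lower, where 4.11% of 8690 genes were, and none was called higher, where 1.01% were. Pdcd1 (0.58, 0.50 to 0.67), Entpd1 (0.67) and Ctla4 (0.74) were also below 1, each in 4 of 4 libraries. Cd160 (1.71, 1.32 to 2.19) and Btla (1.91, 1.17 to 3.02) were above 1, Btla in 3 and Cd160 in 2 of 4 libraries. The Cd160 ratio was 2.004 without library 2 and the Btla ratio 2.21 without library 6. In library 10, Cd160 was at 0 in 26 Tcf7-positive cells and at 115 CPM, from 12 UMIs, in 35 Tcf7-negative cells. The Tigit ratio was 0.57 (0.20 to 1.30), from 6 UMIs in Tcf7-positive cells, with 0.98 and 0.37 in the libraries with and without Y-linked UMIs, and it ran from 0.42 to 0.49 without library 2, 5, 7 or 9.

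Havcr2 was lower in Tcf7-positive cells of all 4 libraries, at 26.1 against 76.3 CPM in library 2, 27.0 against 113 in library 5, 25.9 against 47.8 in library 8 and 0 against 19.1 in library 10, the last from 2 UMIs. Its ratio stayed between 0.21 and 0.28 when any 1 library was left out. Within the libraries with and without Y-linked UMIs it was nearer to 1, at 0.30 and 0.32. Lag3 was less uniform: its ratio was 0.52 without library 3 and 0.64 without library 8, no longer called. Lag3 was higher in Tcf7-positive cells of library 5 (144 against 117 CPM), and its ratio was 0.75 in the libraries with Y-linked UMIs against 0.34 in the others. Of the memory genes measured here, 7 of 8 tested were at least 2-fold higher in Tcf7-positive cells, including Klf2 (3.03-fold) and Il7r (2.38-fold), and of 12 effector and exhaustion genes 4 were at least 2-fold lower, among them Tnfrsf9 (0.37) and Prf1 (0.42). The median log2 ratio was 1.14 for the memory list and -0.53 for the effector and exhaustion list, against -0.05 over all genes tested. Of 10 other inhibitory receptors, 3 were lower (Cd244a at 0.26, Cd200r1 at 0.38 and Pvrig at 0.25, the last from 2 UMIs) and Cd101 was higher (2.102).

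Cycling CD8 T cells (558 cells with at least 2 UMIs of Mki67 and Top2a) were close to non-cycling cells for 6 of the 8 genes, with ratios from 0.84 to 1.06. Of these 6, Entpd1 (0.84) was lower in cycling cells in 8 of 8 libraries. The Havcr2 ratio, 1.06 when pooled, was 0.87 in the libraries with Y-linked UMIs and 1.42 in those without. No member was called higher, where 5.5% of 9451 genes were. Tigit (0.46, 0.24 to 0.82) and Btla (0.47, 0.28 to 0.75) were called lower, where 3.2% were, each in 8 of 8 libraries and from 14 and 21 UMIs in cycling cells. The Tigit ratio was 0.51 without library 2. In the libraries with and without Y-linked UMIs, the Tigit ratio was 0.34 and 0.63 and the Btla ratio 0.54 and 0.27, so that each was past the limit in 1 set.

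**Figure D2:**
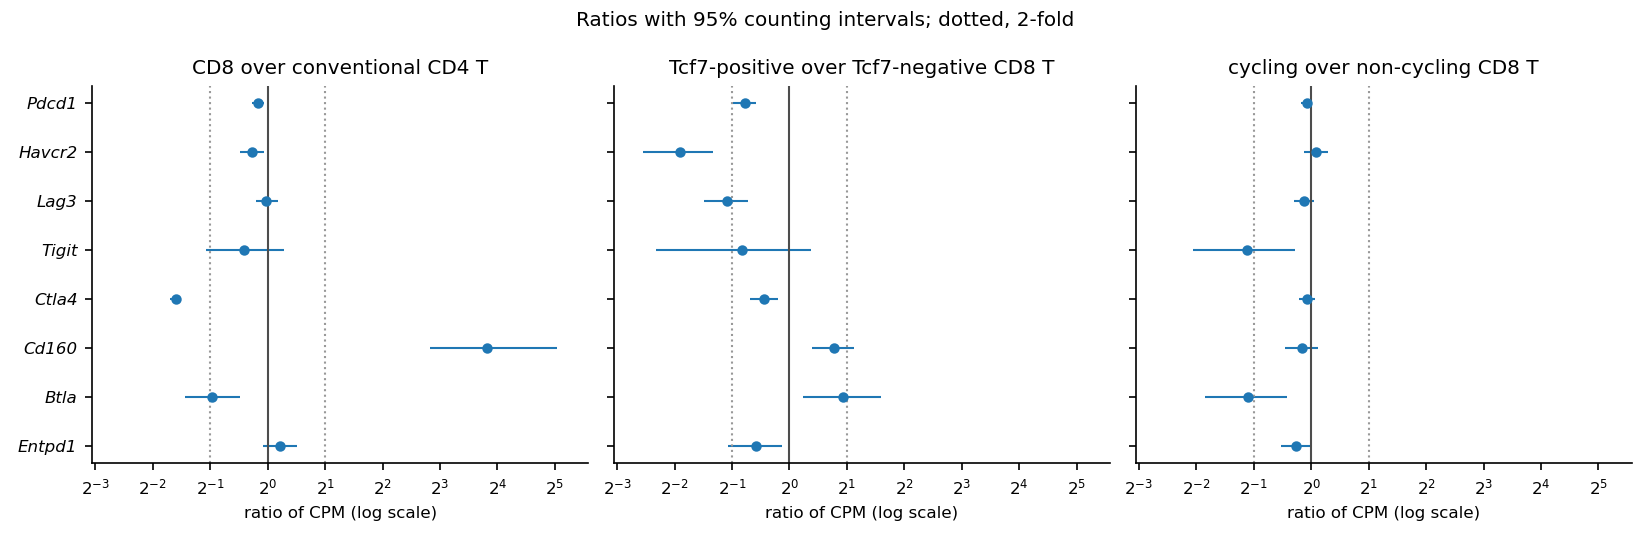
The horizontal axis gives the ratio of CPM on a log2 scale with its 95% counting interval for each receptor, in 3 comparisons of T cells, and dotted lines mark 2-fold. Cd160 and Ctla4 stand outside the dotted lines between CD8 and CD4 T cells, Havcr2 and Lag3 below them in Tcf7-positive cells, and Tigit and Btla below them in cycling cells.

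NK cells had 6 members called lower than CD8 T cells, where 11% of 9562 genes were, and none higher, where 3.78% were. Btla had no UMI in NK cells (upper bound of the ratio 0.49 by the binomial interval, which is wider than the limit of 3 counts), and the other ratios ran from 0.06 for Pdcd1 and 0.11 for Havcr2 to 0.39 for Entpd1, while Tigit (0.97, 0.31 to 2.36) and Cd160 (1.17, 0.81 to 1.64) were within the limit. Trac and Trbc2 stood in the NK class at 13.003% of their CD8 level, a percentage at which Pdcd1 would be 38.8 and Ctla4 22.4 CPM. This percentage came mainly from Trbc2, at 196 CPM in NK and 1075 in CD8 T cells, while Trac was at 16.5 and 559. Only 2 libraries had 20 NK cells, and the Entpd1 ratio was 0.504 without library 5, which held 72 of the 186. In the libraries with and without Y-linked UMIs, the ratio was 0.05 and 0.08 for Pdcd1, 0.06 and 0.22 for Havcr2, 0.12 and 0.35 for Lag3, and 0.24 and 0.53 for Entpd1, which was no longer past the limit in the latter.

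Dendritic cells had 3 members called higher than macrophages, where 12.6% of 14095 genes were, and 1 called lower, where 18% were. The 2 classes shared 111 cells, which count on both sides. Btla was 65.2-fold higher (58.6 to 72.5), Ctla4 10.7-fold and Pdcd1 8.64-fold, each in 12 of 12 libraries, and Entpd1 was at 0.43 and lower in 12 of 12. In the libraries with and without Y-linked UMIs, the ratio was 56.8 and 91.6 for Btla, 8.54 and 24.2 for Ctla4, and 7.00 and 15.4 for Pdcd1. Library 6, with 20676 of the 67675 macrophages, gave 231 of their 560 Btla UMIs, 259 of 499 for Ctla4 and 178 of 399 for Pdcd1. Pdcd1 at the percentage of T cell receptor transcripts in macrophages would be 0.58 CPM, against the 0.87 measured, and in dendritic cells 1.46, against 7.50. Tigit and Cd160 had too few UMIs in these classes. Pdcd1 and Ctla4 were low in both, at 7.50 and 11.6 CPM in dendritic cells. Of 16 tested ligands and partners of the receptors, 4 were at least 2-fold higher in dendritic cells and 2 lower. The PD-1 ligand gene Pdcd1lg2, past the limit, was at 56.0 CPM in dendritic cells against 8.99 in macrophages. Cd274, which encodes the other PD-1 ligand, was at 165 against 88.0, within 2-fold. Lgals9, which encodes a TIM-3 ligand, was at 52.4 against 218.

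CD8 T cells differed between libraries beyond counting error for several receptors. Pdcd1 ran from 163 CPM in library 10 to 524 in library 9 (median 298), and the counting interval excluded the pooled level in 6 of 11 libraries, 3 above and 3 below. Havcr2 ran from 12.1 CPM in library 10 to 125 in library 3 (median 63.2), Lag3 from 30.2 to 180 in the same libraries (median 105), and Ctla4 from 103 in library 10 to 220 in library 7 (median 162). Libraries 10 to 12 were the lowest for Havcr2, at 12.1, 20.4 and 22.8 CPM. Pooled over the libraries with Y-linked UMIs, Havcr2 was at 91.2 CPM in CD8 T cells, and over those without at 49.1; Pdcd1 was at 288 and 311. Library 10, with 62 CD8 T cells, was lowest for Pdcd1, Havcr2, Lag3, Ctla4 and Entpd1 and highest for Cd160 (72.5 CPM) and Btla (42.3 CPM), from 12 and 7 UMIs. Its 61 non-cycling CD8 T cells held 0 Tigit UMIs, too few cells to rank a gene this sparse. Library 10 also had the most Tcf7-positive cells for its size, 26 of 61 non-cycling CD8 T cells. As libraries were not assigned to groups, the part of treatment, animal or library preparation in these differences was not tested.

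**Figure D3:**
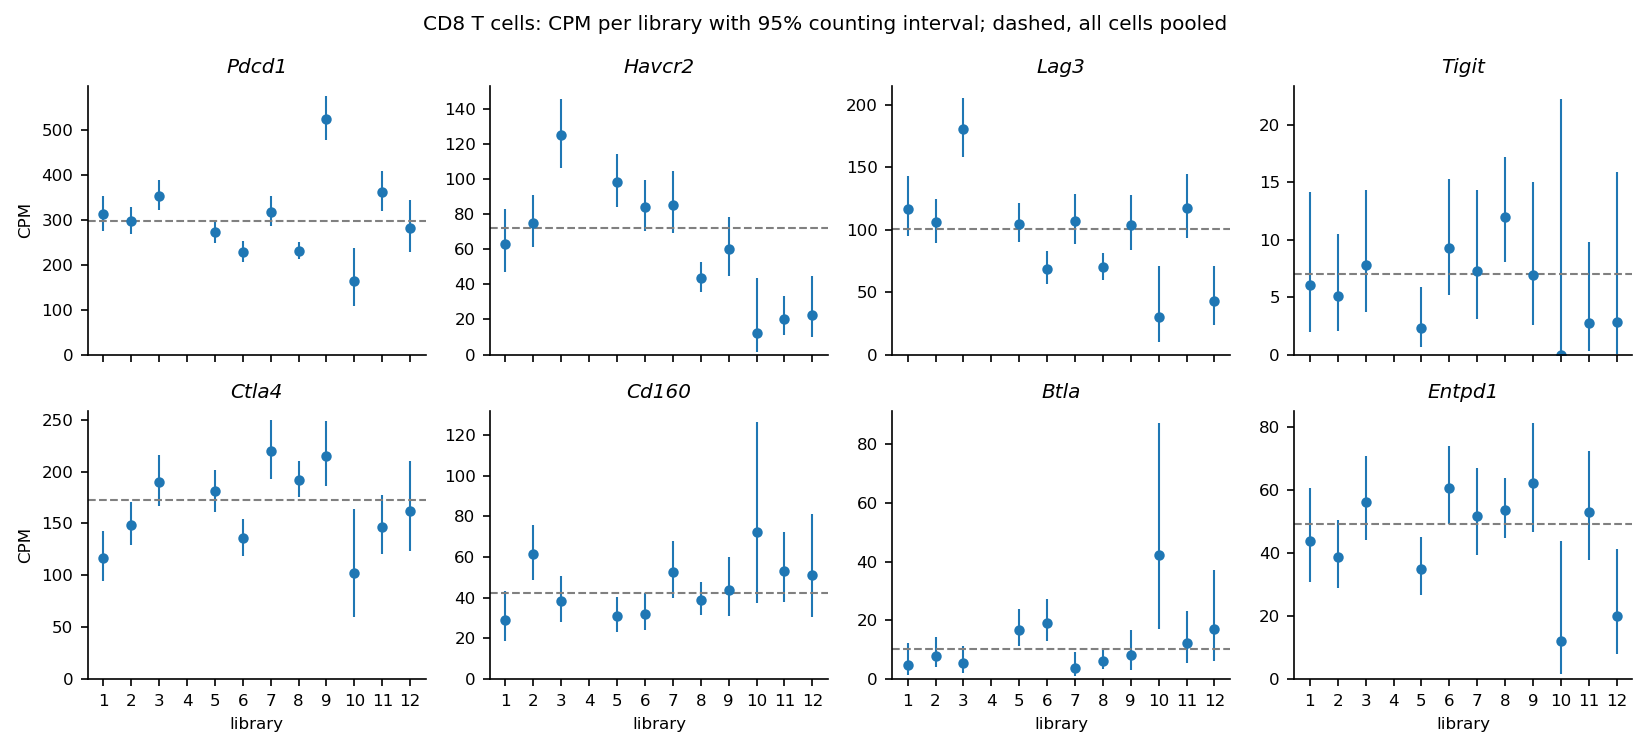
CPM in CD8 T cells (vertical axes, from 0) for each library with at least 20 such cells (horizontal axes), with 95% counting intervals; dashed lines mark the pooled level. Library 10 is lowest for Pdcd1, Havcr2, Lag3 and Ctla4 and highest for Cd160 and Btla, and Pdcd1 reaches 524 in library 9.

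At least 1 of the 8 genes was found in 74.3% of CD8 T cells, at least 2 in 45.5% (43.8 to 47.3%), at least 3 in 24.1% and at least 4 in 10.8%, and the most in 1 cell was 7. At least 2 were found in 54.9% of conventional CD4 T cells, 75.9% of Foxp3-positive cells, 28.5% of macrophages, 24.7% of dendritic cells, 10.8% of NK cells and 2.84% of B cells. These shares follow depth as well as class. With each cell thinned to 500 UMIs they were, in this order, 9.98%, 13.8%, 0.52%, 0.94%, 0% and 0%, against 4.56% of CD8 T cells. The most frequent sets were Pdcd1 alone (392 cells), Ctla4 alone (213), Pdcd1 with Ctla4 (205) and Pdcd1 with Lag3 (106), beside 812 cells with none. By library the share with at least 2 ran from 17.7% in library 10 to 74.0% in library 3, where the CD8 T cells had medians of 2357 and 5254 UMIs. With each cell thinned to 500 UMIs the pooled share was 4.56%, and 5.26% in library 6, which had the second lowest unthinned share (29.8%) and the lowest depth (1767 UMIs). The 4 libraries with the deepest CD8 T cells had unthinned shares of 54.3 to 74.0%, and after thinning they ran from 2.38 to 8.49%. Among states of CD8 T cells the unthinned share was 30.6% in Tcf7-positive, 43.4% in Tcf7-negative and 62.0% in cycling cells, which had the highest depth (5295 UMIs). Thinned to 500 UMIs, these shares were 3.47%, 5.02% and 3.23%, so that cycling cells were no longer highest.

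**Figure D4:**
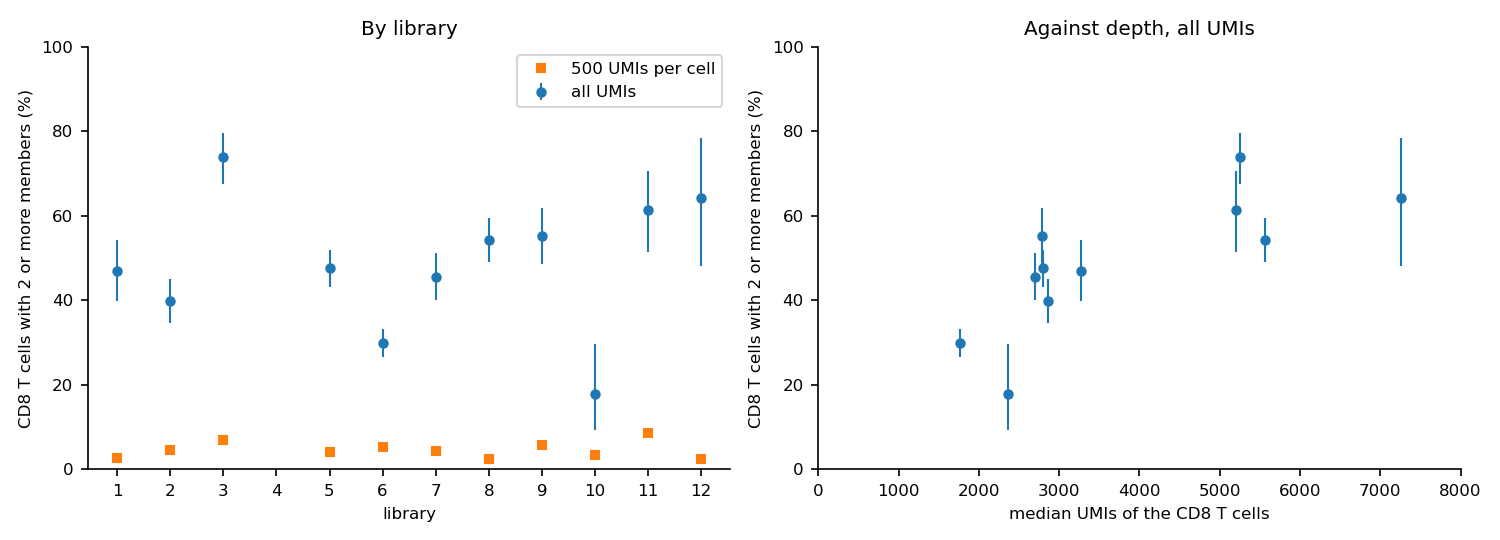
The left panel shows the percentage of CD8 T cells with UMIs of 2 or more receptors by library, with all UMIs (circles, 95% exact intervals) and with 500 UMIs per cell (squares); the right panel sets the former against the median UMIs of the cells. Unthinned shares run from 17.7 to 74.0%, and thinned shares stay below 10%.

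Co-detection was therefore set against the number of cells expected within strata of library and depth, 5 depth strata per library. Of 28 pairs, 7 had a lower bound above 1, where 1.7% of 70784 pairs of a member with another gene did, and none had an upper bound below 1. Cells of a stratum still differ in depth, and over 55769 pairs of a member with another gene and at least 20 cells expected the median ratio was 1.02 and the 95th percentile 1.20. Ratios up to 1.20, such as that of Havcr2 with Ctla4, lie within the range of most such pairs. The expected number was therefore also computed with depth as a continuous term in each library, a choice made after the data had been seen, which gave 6 pairs above 1, 5 of them shared.

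The 5 shared pairs were Pdcd1 with Lag3, Havcr2 with Lag3, Havcr2 with Ctla4, Havcr2 with Entpd1 and Tigit with Entpd1. Pdcd1 and Lag3 were found together in 540 cells where 441 were expected (ratio 1.22, 1.12 to 1.33), above expectation in 11 of 11 libraries, and the continuous term gave 1.19. Havcr2 and Lag3 were found together in 261 cells where 202 were expected (1.29, 1.14 to 1.46), in 10 of 10 libraries, and the continuous term gave 1.33. Havcr2 and Entpd1 (171 cells) had ratios of 1.24 and 1.34, Tigit and Entpd1 (33 cells) 1.67 and 1.51, and Havcr2 and Ctla4 (313 cells) 1.15 and 1.12, the last with a lower bound of 1.00. In this order, these pairs were above expectation in 7 of 9, 4 of 5 and 9 of 10 libraries. The part of macrophage transcripts in the pair of Havcr2 and Entpd1, both high in macrophages, was not tested.

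Pairs of Ctla4 with Pdcd1 and with Lag3 were above 1 only with the strata, at 1.14 and 1.17, and not with the continuous term, at 1.07 (0.99 to 1.15) and 1.10 (0.99 to 1.22). Havcr2 with Btla was above 1 only with the continuous term (1.49, 1.06 to 2.04, against 1.27, 0.90 to 1.74). Pdcd1 and Havcr2 were found together in 394 cells where 360 were expected, a ratio of 1.09 with an interval that included 1 (0.99 to 1.21). Tigit and Btla were found together in no cell, where 3.01 were expected, and the upper bound was below 1 with the continuous term (0.98) and not with the strata (1.22). Pairs of Cd160 with the other 7 genes all had intervals that included 1.

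**Figure D5:**
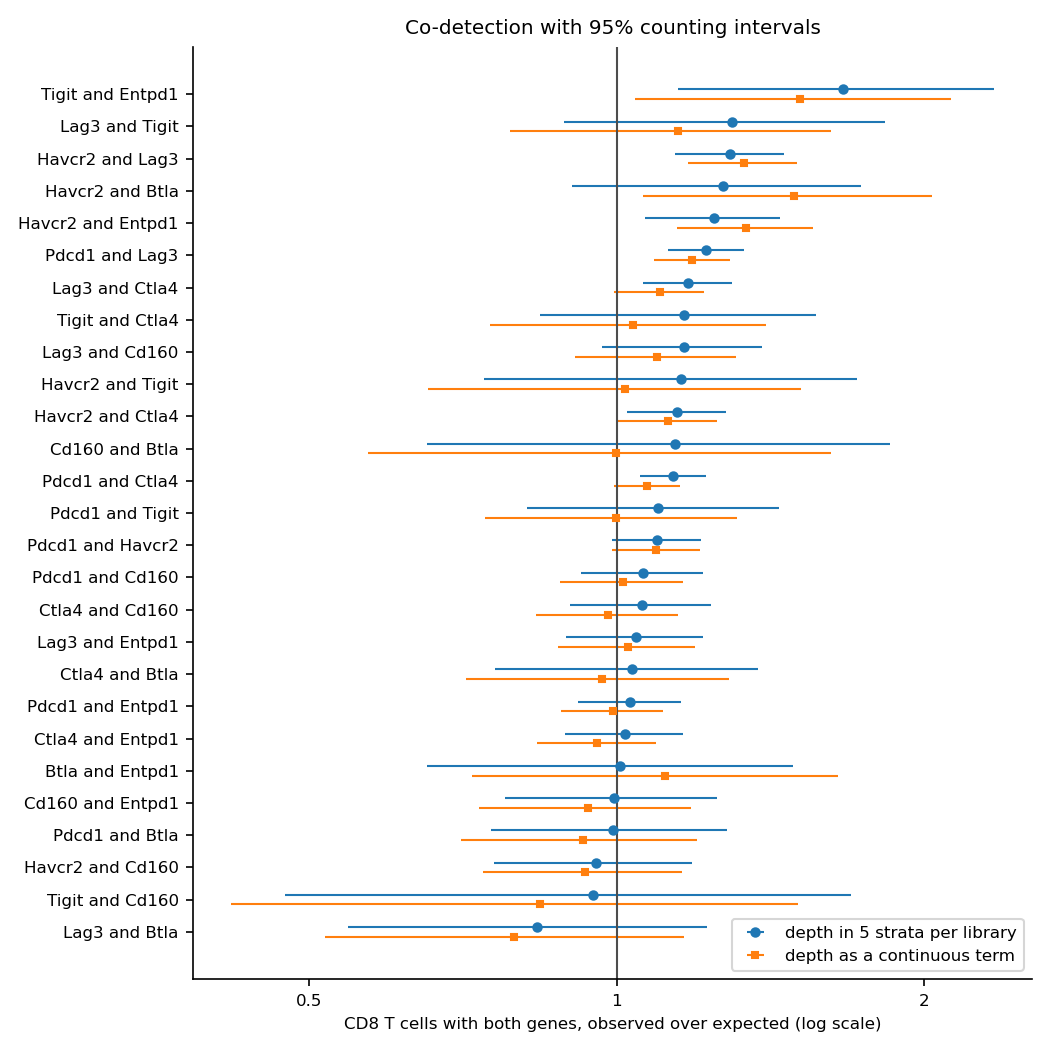
The horizontal axis gives, on a log scale, CD8 T cells with UMIs of both genes over the number expected, for the 27 pairs with at least 10 cells expected; circles use depth strata, squares a continuous depth term, and bars are 95% counting intervals. Pdcd1 with Lag3, Havcr2 with Lag3, Havcr2 with Entpd1 and Tigit with Entpd1 lie above 1 both ways, and Pdcd1 with Ctla4 and Lag3 with Ctla4 move towards 1 with the continuous term.

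Among the other pathway genes, Havcr2 was found above expectation with 8 of 12 effector and exhaustion genes and Lag3 with 7 of 12, by the strata, against 3 of 12 for Pdcd1, 2 of 12 for Ctla4 and 0 of 12 for Cd160, Btla and Entpd1, where 1.7% of all such pairs were above. The median ratio over the 12 genes was 1.14 for Havcr2 and 1.18 for Lag3, both below the 95th percentile of 1.20. Calls at ratios up to 1.20 lie within the range of most pairs of a member with another gene. The share of 1.7% is over all 8 members, and a call is less likely for a gene with few UMIs. In CD8 T cells Tigit had 88 UMIs, Btla 130, Cd160 528 and Entpd1 615, against 904 for Havcr2 and 1252 for Lag3. Ctla4 had 2158 and Pdcd1 3733. For Havcr2 the ratios were 1.43 with Ccl3, a chemokine, and 1.26 with Prf1, which encodes perforin. Ccl3 was at 107 CPM in CD8 T cells, 198 in macrophages and 7556 in neutrophils. The part of myeloid transcripts in the pair of Havcr2 and Ccl3 was not tested. Havcr2, Lag3 and Pdcd1 were each found below expectation with 3 of 8 memory genes, where 0.616% of all such pairs were below, and Havcr2 with Tcf7 had a ratio of 0.42 (0.27 to 0.62), as 24 cells had both where 57.2 were expected; this rests on largely the same cells as the Tcf7 comparison. Tigit was above expectation with 1 of 12 effector and exhaustion genes, Prdm1 (1.89, 1.12 to 2.99), and Cd160 with 2 of 8 memory genes, Xcl1 (1.51, 1.29 to 1.77) and Ccr7 (1.44, 1.14 to 1.79). Of 8 signalling genes, only the phosphatase gene Ptpn6 was above expectation with any receptor, with Havcr2 (1.12, 1.01 to 1.25) and Lag3 (1.12, 1.01 to 1.23), and both ratios lie below the 95th percentile of 1.20. In non-cycling CD8 T cells with a Havcr2 UMI, Lag3 was at 140 CPM and Entpd1 at 68.5, against 90.4 and 46.1 in those without, at medians of 4509 and 2426.5 UMIs. Btla was at 18.8 against 10.2 CPM, Ctla4 at 218 against 161, Pdcd1 at 331 against 294, Cd160 at 48.3 against 42.1 and Tigit at 9.19 against 8.08, and the counting intervals overlapped for Pdcd1, Cd160 and Tigit. No member differed by 2-fold.

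The genes most alike in level to each receptor were named over 61 sums of class and library by Pearson's r of log2(CPM + 1), a description in which sums of 1 library share depth and sums of 1 class share cell type. They were Themis (0.915), Camk4 (0.907) and Cxcr6 (0.905) for Pdcd1, Trac (0.921), Icos (0.905) and Il18r1 (0.905) for Ctla4, Cst7 (0.823), Xlr4b (0.819) and Osbpl3 (0.809) for Lag3, and Zfp827 (0.865), Ppp2r2c (0.846) and Serp2 (0.842) for Tigit. For Cd160 they were Samd3 (0.881), Tcrg-C4 (0.861) and Klrc1 (0.857), for Btla Gnb4 (0.850), Hmgn3 (0.840) and Cd200 (0.833), for Havcr2 Igsf8 (0.752), Rgs10 (0.737) and Hipk2 (0.725), and for Entpd1 Trem1 (0.829), Id1 (0.826) and Bnip3 (0.823). Among the members themselves, Pdcd1 and Ctla4 were most alike (0.836), and Btla and Entpd1 least (-0.433).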

How the data were processed

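Unique molecular identifier (UMI) counts of 12 libraries of CD45+ cells were deposited by the authors as 1 raw matrix of counts per gene and barcode, made from 10x Genomics 3' v3 libraries. The submitters' processing notes name Cell Ranger 2.1.1, Seurat and mm10, while the matrix header names version 3.0.2. The sources used here do not give the annotation. The study's limits were applied again (over 200 genes, under 5000 genes, mitochondrial UMIs of 10% or less). No doublets were removed, but cells with UMIs of macrophage genes were left out of the T and NK classes. This kept 1973 cells (median 5538 UMIs, 930 of them in library 6) out of the CD8 T class, whose other rules they met. A further 2036 cells of the T gate were in no named T class. Levels are summed UMIs per 1000000 (CPM) with exact Poisson intervals, shares have exact Clopper-Pearson intervals, and ratios have exact binomial intervals, all for counting error only. Classes were compared over all their cells, and again in each library with at least 20 cells of both. Named genes were the 8 receptors, the 3 genes most alike to each and 5 pathway lists. Members and lists were chosen with earlier results of these data known. Scripts were checked on simulated cells with Python 3.11.15, numpy 2.4.6 and scipy 1.17.1; this showed that 5 depth strata leave a small excess of co-detection for independent genes, so a continuous depth term was added afterwards. Alternatives covered the gates, the mitochondrial limit, thinning, single libraries and the libraries with and without Y-linked UMIs.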

Additional observations from a re-analysis of the deposited data

Results flagged for a closer look

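Entpd1 was at 411 CPM in neutrophils, a class that served only as background (86.1 to 803 CPM over 12 libraries, above macrophages of the same library in 11 of 12). It is listed because it is a signal in a class that no comparison of the receptors used, and it exceeded the level in B cells (21.7 CPM). An Entpd1 UMI was found in 43.6% of these cells at a median of 1216 UMIs. The cause was not tested.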

How the results depend on the processing

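The share of CD8 T cells with at least 2 receptors, 45.5%, depended on depth and gates. It was 42.4% and 49.0% with a Cd3 minimum of 1 and 3 UMIs, 50.7% with macrophage UMIs allowed, 41.4% with Lyz2 and C1q UMIs limited, 48.2% at a 5% mitochondrial limit, 41.7% without the deepest cells, 4.56% and 11.96% after thinning to 500 and 1000 UMIs, and 48.8% with libraries weighted equally. It was 50.3% without libraries 4 and 6, 42.5% in libraries with Y-linked UMIs and 51.0% in those without, and 43.5 to 50.4% without 1 library, lowest without library 3 and highest without library 6. The 7 pairs became 16 with strata of library only, 3 and 2 after thinning to 500 and 1000 UMIs, and 6 to 7 without 1 library. They were 5 in libraries with Y-linked UMIs and 4 in those without, 5 at a 5% mitochondrial limit, and 8 with Lyz2 and C1q UMIs limited. The 2 members lower in Tcf7-positive cells became 1 with macrophage UMIs allowed, after thinning to 500 UMIs and in libraries with Y-linked UMIs, and 1 to 3 without 1 library (1 without library 3 or 8). The 1 member higher in Foxp3-positive cells became 0 after thinning to 1000 UMIs and in libraries with Y-linked UMIs, 2 with Il2ra-positive CD4 T cells added, and 0 to 1 without 1 library (0 without library 8). The cause was not tested. The counts of members higher in CD8 over CD4 T cells, NK over CD8 T cells, cycling over non-cycling cells and dendritic cells over macrophages were the same under the alternatives run. For NK over CD8 T cells and for cycling over non-cycling cells this count was 0 throughout. Members called lower in those comparisons were not counted this way. Of them, Entpd1 in NK cells and Tigit in cycling cells were within the limit without 1 library, as given above. The settings with libraries 4 and 6 left out, Y-linked UMIs, Il2ra or a continuous depth term were added after seeing the data. No paired analysis was possible because no label ties the library numbers to a sample or replicate number. Few UMIs limit Tigit and Btla in T cells, and few cells limit the Foxp3-positive class.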
